A study of Mus musculus with 5 samples.

Results

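The first step from mouse embryonic stem (ES) cells towards motor neurons was described here over the genes outside the Hox clusters. ES cells were compared with embryoid bodies, the floating aggregates that ES cells form, after 8 h of retinoic acid (RA), a time point called Day2. Of 11393 non-Hox genes with a usable signal on both arrays, 653 were raised 2-fold or more and 865 were lowered 2-fold or more, which is 1518 genes in all. These shares, 5.73% raised and 7.59% lowered, chose the members and are given as a description. A gene was usable when its probe was well above background on both arrays, as the scanner software flags it, and its quantile-normalized log2 intensity reached 8 on at least 1 of them. Another 8 genes of the Hox clusters passed the same filter and were left out.

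The series held 5 arrays of male wild-type cells, 1 each for ES cells, Day2, Day3, Day4 and Day7, so no test was possible, no SD exists between cultures, and the number of arrays limits the precision of every value. Day3 and Day4 were embryoid bodies that had received RA for 1 and 2 days, and Day7 was labelled as motor neurons after 5 days of RA but with embryoid bodies as its tissue. The labels say that RA and Shh were given between day 2 and day 5, whereas the study's text names a smoothened agonist in place of Shh. On the slide that holds the first 4 arrays, the array position in each file's name and that in its scanner header differ, as if counted from opposite corners, and the arrays were assigned by their GEO labels. The labels do not name the ES cell line of these arrays, and embryoid bodies of the same age without RA were not among them. The change from ES culture to aggregates, the time since then, RA and the Shh or agonist given with it therefore cannot be told apart. Neither can a change in the share of cells that express a gene and a change in its RNA per cell.

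RA is a small molecule derived from vitamin A. It binds the nuclear receptors RAR, which sit with RXR partners on direct repeats of a short core motif in DNA, and turns their target genes on. Among the known targets are genes of its own receptors, carriers and degrading enzymes, and in the embryo RA gives neural cells a hindbrain or spinal identity.

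The ES array carried transcripts known from ES cells, with Pou5f1 at a log2 level of 12.39, Sox2 at 12.70 and Zfp42 at 11.26. Sox2 was also high on Day7, at 11.93. Nanog, another such gene, was lower, at 9.20 in ES cells, and stood at 9.98 on Day4. The Day2 array stood apart from the others in its dim probes: 86.7% of its probes were well above background, against 57.5% to 65.7% on the other 4 arrays. Probes for olfactory and vomeronasal receptor genes, which are silent in most tissues, passed this flag in 67.8% of cases on Day2 and in at most 14.1% elsewhere. How much this added to the rise of genes that were dim in ES cells was not tested. Of the 653 raised genes, 342 lay below a log2 level of 8 in ES cells, so that they entered only through their Day2 signal. In the same way, 391 of the 865 lowered genes lay below 8 on Day2 and entered only through their ES signal. Spots of the same probe differed by a median SD of 0.075 on the ES array and 0.11 on Day2 (log2), which covers error within an array only.

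**Figure D1:**
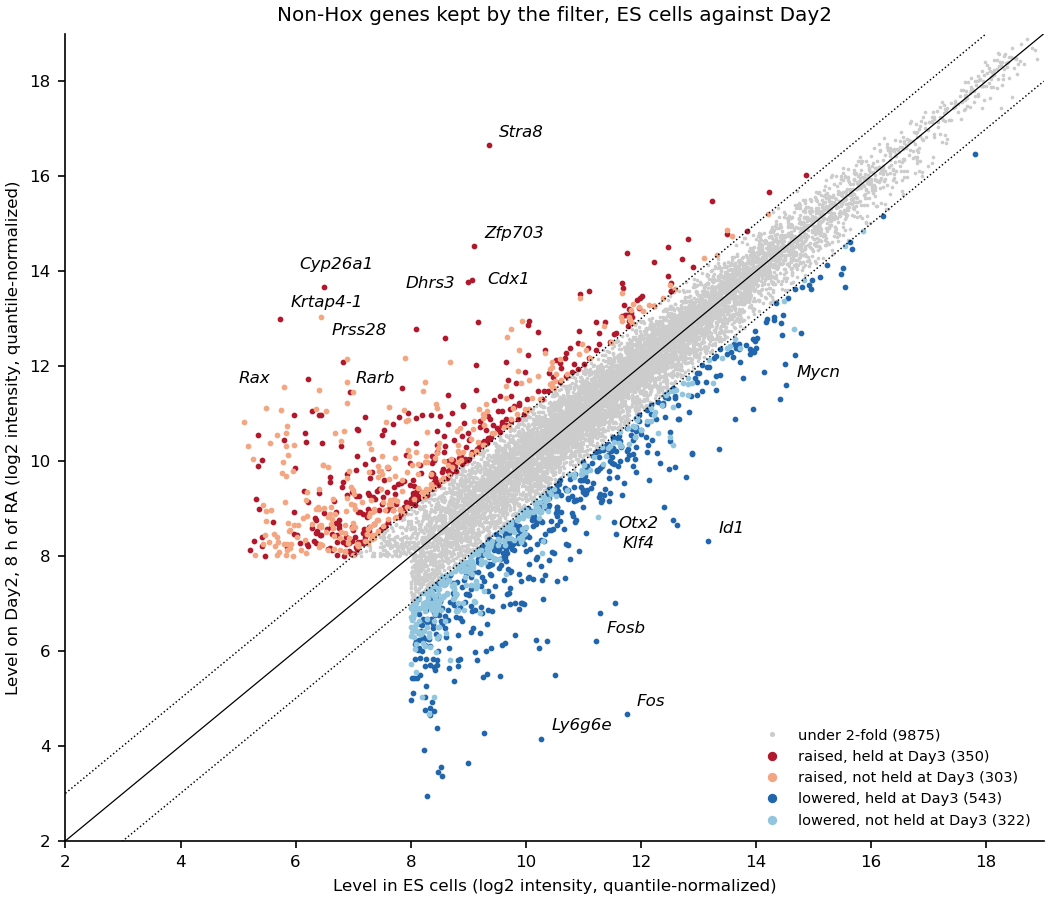
Level of each kept non-Hox gene in ES cells (horizontal axis) against Day2 (vertical axis), both as quantile-normalized log2 intensity. The solid line marks equal levels, the dotted lines 2-fold, and colours mark genes raised or lowered and whether they held at Day3. The empty lower left corner is the filter at a log2 level of 8. Stra8, Cyp26a1 and Rarb lie far above the lines and Fos, Fosb and Ly6g6e far below them.

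Most of the 653 raised genes moved by little: 419 rose less than 4-fold, 234 rose 4-fold or more and 43 rose 16-fold or more. Of the lowered genes, 682 fell less than 4-fold, 183 fell 4-fold or more and 18 fell 16-fold or more. At the edge of the rule lay Scd2 and Actc1, raised by 1.0 and 1.01 on the log2 scale, with Mvb12b and Ring1 just outside it at a rounded 1.0. On the lowered side Inpp5k and Dnaic1 were just inside and Kcnj13 and Tdrd5 just outside, each at a rounded -1.0. The median log2 change over all kept genes was -0.01. Raised genes made up 43.0% of those changed, and 59.9% when the arrays were not normalized. When each array was instead shifted to its own 75th percentile, the median of the kept genes moved to -0.21.

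A gene was called held when it was still changed 2-fold or more from ES cells, in the same direction, at Day3. Of the 653 raised genes 350 held (53.6%), and of the 865 lowered genes 543 held (62.8%). These shares depended on the processing: with no normalization 33.4% of raised and 94.3% of lowered genes held, and with no level filter 49.5% and 38.0%, so that the order turned. The rule itself treats the directions differently, since the 24 raised genes that were not well above background on Day3 were not counted as held, and the 26 such lowered genes all were. Over all 11393 kept genes, 10.7% were raised and 10.7% lowered 2-fold or more from ES cells to Day3. Both steps use the same ES array, so the counts are not independent evidence of each other. A further 24 raised genes were 2-fold or more below ES cells at Day3, and 6 lowered genes were above. At Day3, Day4 and Day7 alike, 196 raised and 348 lowered genes remained 2-fold or more from ES cells.

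The share that held was lower for raised genes past 4-fold than for smaller rises, and went up with the size of the change among lowered genes. Of the genes raised 2-fold to 4-fold 57.3% held, and in the 3 larger classes 47.9%, 44.7% and 46.5% held, the last being 20 of 43. Of the genes lowered 2-fold to 4-fold 56.3% held, whereas 34 of 37 genes lowered 8-fold to 16-fold and 18 of 18 lowered 16-fold or more held. Raised genes that were dim in ES cells held in 46.8% of cases, against 61.1% for the 311 raised genes that were at a log2 level of 8 or more in ES cells. The genes raised 16-fold or more had a median level of 6.18 in ES cells, 11.06 on Day2 and 6.91 on Day3. The genes lowered 16-fold or more had a median level of 9.89, 4.53 and 5.87 on the same arrays.

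**Figure D2:**
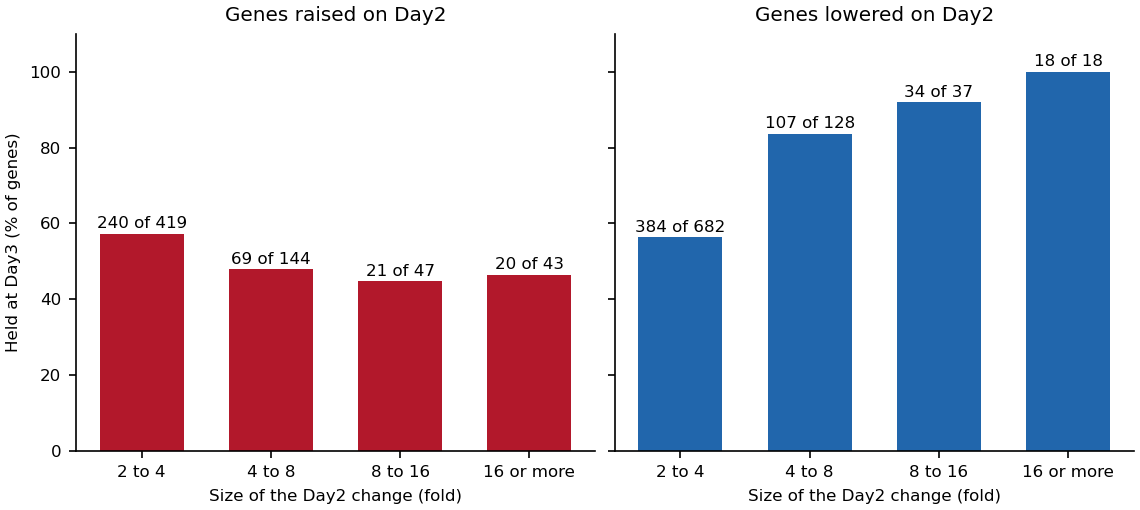
Share of the raised genes (left) and lowered genes (right) that were still changed 2-fold or more from ES cells at Day3, by the size of their change on Day2. Each bar is a percentage of the genes in that size class, and the label gives held genes of all genes. The share of raised genes is 57.3% in the smallest class and 44.7% to 47.9% in the others, and that of lowered genes goes from 56.3% to 18 of 18.

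Genes of retinoid signalling were examined first. Of 23 genes in that list 18 were kept, and 9 of these were raised (50%, against the 5.73% of all kept genes) and 0 lowered. All 9 held at Day3, against 53.6% of all raised genes. Among the 13 genes at a log2 level of 8 or more on both arrays 6 were raised. The median log2 change of the list was 0.86 on Day2 and 1.53 on Day3.

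Enzymes that break RA down were among them. Cyp26a1, a cytochrome that oxidizes RA, had a log2 level of 6.50 in ES cells, against 13.66 on Day2, 15.40 at Day3, 15.22 at Day4 and 8.09 at Day7. It was 143-fold above ES cells on Day2 and 3.0-fold above them on Day7. Cyp26b1, its relative, went from 6.15 in ES cells to 9.37 on Day2 and 11.18 on Day3, and peaked later, at 14.71 on Day4. Dhrs3, which reduces retinal and so lowers the supply of RA, rose 27.4-fold, from 9.00 to 13.78, and stood at 14.72 on Day3.

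Among the receptors, Rarb was at 6.82 in ES cells and 12.09 on Day2, then 12.51, 12.77 and 12.42 at Day3, Day4 and Day7. Under another background correction, normexp, the rises of Cyp26a1, Rarb and Cyp26b1 were smaller, at 6.27, 4.61 and 2.44 on the log2 scale against 7.16, 5.27 and 3.22. The rise of Rarb was 38.5-fold on Day2 and changed little afterwards, in contrast to the later fall of Cyp26a1. Rara rose 2.26-fold from 12.91 to 14.08, which was 0.88 on the log2 scale in the deposited values and 0.67 with the mean over probes, both inside 2-fold, whereas Rarg changed by 0.13 and Rxrb by -0.04 on the log2 scale. Nrip1, a corepressor of nuclear receptors, rose 4.0-fold.

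Crabp2, a carrier which brings RA to its receptors, rose 2.90-fold on Day2. It rose further, from 14.25 on Day2 to 17.59 on Day3. Crabp1 was at 8.77 in ES cells and 9.09 on Day2, and passed 2-fold only at Day3, at 10.36. The enzymes that make RA, Aldh1a2 and Rdh10, were at -0.67 and -0.83 on the log2 scale from ES cells to Day2. Stra8, known as a gene stimulated by RA and for its part in meiosis, had the largest rise among all kept genes in the main setting, at 9.36 in ES cells, against 16.65 on Day2, 17.32 at Day3, 17.32 at Day4 and 13.91 at Day7. Its 157-fold rise on Day2 ranged from 7.06 to 7.73 on the log2 scale over the processing alternatives.

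Promoters were searched for the direct repeat that RAR and RXR bind, with 5 bases between its 2 core motifs (DR5). The core motif could read AGGTCA or AGTTCA or GGGTCA or GGTTCA, on either strand, in windows of 300 bases of which 250 lie before the transcript start, from RefSeq for the build GRCm38.p6. DR5 occurred in 31 of 27025 gene symbols with such a window (0.115%), in 4 of the 9152 kept genes with one (0.0437%), and in 2 of the 492 raised genes that had one. Those 2 genes were Rarb and Cyp26a1, and 1 lowered gene, Cfap45, also held it. The last 120 bases before each start are shown, since the pair combines a motif match with a rise of over 16-fold. Capitals mark the core motifs, which lie 53 to 37 bases before the start of Rarb (window chr14:16575477-16575596, minus strand) and 32 to 16 bases before that of Cyp26a1 (chr19:37697688-37697807, plus strand), where they read on the opposite strand.
Rarb: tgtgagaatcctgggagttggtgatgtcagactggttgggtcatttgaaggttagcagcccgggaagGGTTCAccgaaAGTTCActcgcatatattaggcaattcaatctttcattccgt
Cyp26a1: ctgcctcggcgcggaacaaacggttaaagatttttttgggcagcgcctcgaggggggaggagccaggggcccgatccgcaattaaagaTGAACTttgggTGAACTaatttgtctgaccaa
Of the 9 raised retinoid genes 7 had a promoter window, and the other 5 of these held no DR5 in it. The repeat with 2 bases between core motifs was found in 84 of the 27025 symbols, in 1 of the 492 raised genes, Casd1, and in 2 of the 656 lowered genes. A match is a description of the letters and not of binding.

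Transcription factors that pattern the body axis, other than Hox, behaved in a similar way: of 18 kept genes 10 were raised (55.6%, against 5.73% of all kept genes) and 2 lowered (11.1%, against 7.59%). All 12 held, where 53.6% of all raised and 62.8% of all lowered genes did. With a log2 level of 8 or more on both arrays, 6 of 13 were raised and 1 lowered. The list had a median log2 change of 1.15. Cdx1, a caudal homeobox factor, was at 9.07 in ES cells and 13.82 on Day2, then 13.06, 11.45 and 8.26 at Day3, Day4 and Day7, a 27.0-fold rise that had gone by Day7. Meis2, whose product pairs with Hox proteins on DNA, went the other way over time: 8.09 in ES cells, against 12.79 on Day2, 13.16 at Day3, 13.44 at Day4 and 14.08 at Day7. Zfp703, a zinc finger repressor, rose 43.2-fold, from 9.10 to 14.53, and its relative Zfp503 rose 8.29-fold from 5.27 to 8.32 (1.85 on the log2 scale under normexp).

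The other raised factors of this list differed in when they made their largest step. Nr2f1 and Nr2f2, orphan nuclear receptors of the hindbrain and mesenchyme, were 2.30-fold and 6.90-fold above ES cells on Day2, the latter at 1.57 on the log2 scale under normexp. By Day3 Nr2f1 had moved from 9.20 to 13.10, whereas Nr2f2 went from 8.20 to 8.76 and reached 11.96 on Day4. Tshz1, a trunk patterning factor, rose 3.88-fold on Day2, from 8.57 to 10.52, and by more to Day3, where it stood at 13.34. Irx3, Pbx2 and Nr6a1 rose 3.34-fold, 2.44-fold and 2.13-fold. Meis1 was at 10.02 and 10.70 on the first 2 arrays and passed 2-fold only at Day3, at 13.14. Otx2, a factor of the forebrain and of the early epiblast, was lowered 13.9-fold: its level was 12.55 in ES cells and 8.76 on Day2, then 6.10, 5.39 and 7.48 at Day3, Day4 and Day7.

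**Figure D3:**
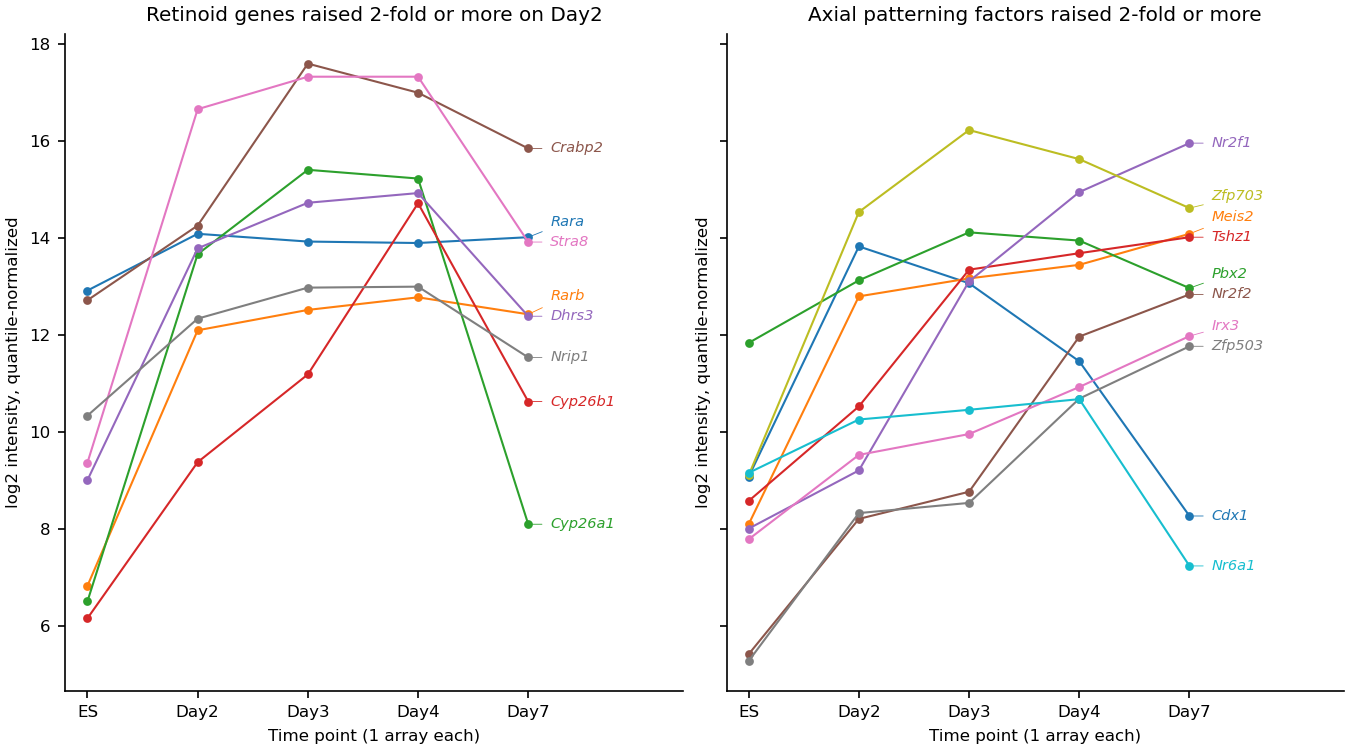
Quantile-normalized log2 intensity over the 5 arrays for 8 of the 9 retinoid genes (left) and the 10 axial patterning factors (right) that were raised 2-fold or more on Day2. Each point is 1 array. All 18 genes drawn lie above their ES level on Day2 and on Day3. Cyp26a1 and Cdx1 come down by Day7, to 8.09 and 8.26, whereas Meis2 and Nr2f1 keep rising, to 14.08 and 15.95.

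Most of the largest rises lay outside these lists, and most of those did not last. Of the 15 largest rises among kept genes, 4 belonged to the retinoid or axial lists and all 4 held, while 8 of the other 11 did not hold at Day3. Prss28, a serine protease gene, was at 6.44 in ES cells, against 13.04 on Day2, 7.35 at Day3, 7.83 at Day4 and 6.52 at Day7. Rax, a homeobox factor of the eye field, was at 5.80, 11.56, 6.26 and 6.47 on the first 4 arrays and was not well above background on Day7. Both were high on the Day2 array alone. The mucin gene Muc5b went from 5.11 to 10.83 and back to 5.29 at Day3, and the matrix gene Matn4 from 6.90 to 12.14 and back to 7.30. Krtap4-1, a keratin-associated protein gene, rose 153-fold, from 5.73 to 12.99, and was at 7.47 on Day3, which kept it past 2-fold. Of the 15 genes, Stra8 and Zfp703 were above a log2 level of 8 in ES cells, and the rest lay between 5.11 and 6.90. Genes this dim in ES cells depended on the background correction: under normexp the log2 rise of Krtap4-1 was 6.10 in place of 7.26, that of Prss28 5.76 in place of 6.60, that of Rax 4.70 in place of 5.77, that of Muc5b 4.30 in place of 5.72 and that of Matn4 4.63 in place of 5.24.

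Slit2, an axon guidance ligand, was among the 10 largest rises that held, at 6.28 in ES cells and 11.05 on Day2, then 8.25, 8.53 and 13.51 at Day3, Day4 and Day7. Cbln2, a synaptic organizer, was at 6.40, 11.50 and 6.91 on the first 3 arrays and at 10.08 on Day7. Fbxo41 rose 45.7-fold on Day2 and was at 7.64 on Day3, against 6.21 in ES cells. Under normexp the log2 rises of Slit2, Cbln2 and Fbxo41 were 3.84, 4.28 and 4.49, in place of 4.76, 5.09 and 5.51.

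The 15 largest falls all held at Day3. Among them, 5 had a probe that was not well above background on Day3, where only an upper limit was used. Ly6g6e, a gene of the Ly6 family of surface proteins, was 1 of these 5, with 10.27 in ES cells, 4.15 on Day2 and 5.49 on Day4. Khdc3, a gene of oocytes and early embryos, fell 23.4-fold from 11.55 to 7.0 and stood at 7.19 on Day3. Irak3, an inhibitor of Toll-like receptor signalling, fell 18-fold from 10.23 to 6.06. Vomeronasal receptor genes were among them too, Vmn2r65 at 8.28 in ES cells and 2.94 on Day2, and Vmn2r113 at 8.47 and 3.45. Both Day2 values lay below 4.18, the lowest value well above background on the ES array, which was 2.6 on Day2. The log2 falls of Vmn2r65 and Vmn2r113, -5.34 and -5.02, were -2.14 and -2.22 under normexp, and that of Ly6g6e was -6.12 and -3.65. For Khdc3 and Irak3 the values were -4.55 and -4.17, and -3.92 and -3.10 under normexp.

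Immediate early genes, which growth signals switch on within minutes, were lowered in 12 of 23 kept genes and raised in 0 (52.2% lowered, against 7.59% of all kept genes), with a median log2 change of -1.01. Of the 12, 7 entered only through their ES signal: among the 16 genes at a log2 level of 8 or more on both arrays 5 were lowered, and the median was -0.68. At Day3 10 of the 12 held, against 62.8% of all lowered genes. Fos, which forms AP-1 with Jun, had the largest fall among all kept genes in the main setting. Its level was 11.75 in ES cells, against 4.67 on Day2, 6.57 at Day3, 8.33 at Day4 and 7.92 at Day7, so it was 135-fold lower on Day2 and recovered in part. Its log2 fall was -7.08 here and -5.04 under normexp, and that of Fosb was -5.01 and -3.99. Fosb, its relative, fell 32.3-fold, from 11.22 to 6.21, and stayed between 6.54 and 6.86 on the 3 later arrays. Fosl1 fell 12.7-fold (-3.66 on the log2 scale, and -2.08 under normexp) and Fosl2 2.55-fold, and Fosl2 was back at 9.00 on Day3 against 8.37 in ES cells. The fall of Fosl2 lay inside 2-fold in the deposited values, at -0.76, and with no normalization, at -0.53.

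The early growth response factors fell too. Egr1 went from 12.12 to 10.34, Egr2 from 8.37 to 4.92 (a change of -3.45, and -1.92 under normexp), and the orphan receptor Nr4a1 from 13.60 to 12.20. Zfp36, which speeds the decay of cytokine messages, fell 6.35-fold (-1.31 on the log2 scale with no normalization), and Maff, a small Maf factor, fell 5.47-fold. Jun and Jund stayed near their ES levels, at log2 changes of -0.23 and -0.32, and so did Srf at -0.15. Junb had a level of 7.07 in ES cells and 3.86 on Day2, below the filter on both arrays.

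Serum response factor binds the CArG box, which is CC, then 6 bases that are each A or T, then GG. It was found for 488 of the 27025 gene symbols with a promoter window (1.81%), in 148 of the 9152 kept genes with one (1.62%), in 18 of 656 lowered and in 9 of 492 raised genes that had one. Of the 12 lowered immediate early genes 9 had a window, and 2 of these, Egr2 and Zfp36, held the box. Their 120 bases before the start are shown as the examples in this group, with the box in capitals, at chr10:67537749-67537868 on the plus strand for 1 of the starts of Egr2 and chr7:28379229-28379348 on the minus strand for Zfp36.
Egr2: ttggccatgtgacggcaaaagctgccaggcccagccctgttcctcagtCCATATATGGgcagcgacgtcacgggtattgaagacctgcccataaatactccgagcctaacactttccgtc
Zfp36: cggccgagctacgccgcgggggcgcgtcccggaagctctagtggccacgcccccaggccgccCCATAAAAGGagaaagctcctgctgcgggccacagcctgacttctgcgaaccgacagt

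Pluripotency genes lay below their ES level in nearly every case, by more or by less than 2-fold. Of 32 kept genes 1 was above 0 on the log2 scale. Of 32 kept genes 16 were lowered (50%) and 0 raised (7.59% of all kept genes were lowered, and 24 of this list when each array was shifted to its 75th percentile), with a median log2 change of -1.15, and 15 of the 16 held at Day3, where 62.8% of all lowered genes did. Those lowered included genes of the LIF pathway, the cytokine route on which mouse ES cells depend in culture. Socs3, its feedback inhibitor, was at 13.36 in ES cells and 10.26 on Day2, then 10.30, 11.33 and 11.38 at Day3, Day4 and Day7. Stat3, its transcription factor, was 5.20-fold lower on Day2 and Lifr, its receptor, 5.88-fold lower, while the co-receptor Il6st changed by -0.61 on the log2 scale. Lifr came back from 9.59 on Day2 to 12.42 on Day7.

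Factors of the naive state of pluripotency fell as well. Klf4 went from 12.63 in ES cells to 8.66 on Day2, with 8.77, 9.02 and 9.00 on the later arrays, a 15.6-fold fall. Klf5 fell 6.59-fold, Esrrb 5.50-fold, Tbx3 3.24-fold and Prdm14 5.47-fold. With no normalization the log2 changes of Prdm14 and Nanog were -1.60 and -1.56, in place of -2.45 and -2.41. Nanog fell 5.32-fold on Day2, from 9.20 to 6.79. It was the 1 lowered gene of this list that did not hold, at 8.85, 9.98 and 8.80 on Day3, Day4 and Day7. Klf2 was at -0.68, with 13.66 in ES cells and 12.98 on Day2.

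The core factors Pou5f1 and Sox2, unlike Nanog, lay inside 2-fold in the main setting. Both lay past it by a little in the deposited log2 values and when each array was shifted to its 75th percentile. Pou5f1, the gene of Oct4, was at 12.39 in ES cells, against 11.68 on Day2, 10.01 at Day3, 8.90 at Day4 and 8.22 at Day7. Its Day2 change was -0.72, and -1.07 in the deposited log2 values. Sox2 was at 12.70, 12.01, 12.01, 11.44 and 11.93 on the 5 arrays. Zfp42, also called Rex1, changed by 0.14, and Dppa4, Lin28a and Sall4 by -0.20, -0.39 and -0.59. Several genes near 2-fold on Day2 fell far more at the next step, as Nr0b1 did from 12.60 in ES cells to 11.69 on Day2 and 8.74 on Day3, and Fgf4 from 14.31 to 12.98 and 9.90. The ES array also carried genes of the primed epiblast, such as Otx2, Pou3f1 at 14.55, Dnmt3b at 16.98 and Fgf5 at 11.04. Of 17 kept genes of that list 4 were lowered (23.5%, against 7.59% of all kept genes) and 3 raised (17.6%, against 5.73%), and under the 75th percentile shift 6 were lowered and 2 raised. Fgf5, an FGF of the primed epiblast, fell 5.85-fold.

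The list of BMP and Nodal signalling held ligands, inhibitors, a co-receptor and targets. Of its 21 kept genes 9 were lowered (42.9%, against 7.59% of all kept genes) and 3 raised (14.3%, against 5.73%). A single gene was raised under the 75th percentile shift, under normexp and in the deposited log2 values. The 4 Id genes, targets of BMP whose products block basic helix-loop-helix factors, were all lowered on Day2. Id1 was at 13.17 in ES cells and 8.31 on Day2, then 10.81, 13.39 and 11.77 at Day3, Day4 and Day7. Id2 was at 12.78, 9.67, 10.98, 13.34 and 11.81 on the same arrays. Id3 fell 3.27-fold and was back at 11.98 on Day3 against 12.30 in ES cells, so it did not hold. Of the 5 arrays, all 4 genes were lowest on Day2. Id4 was at 8.66 in ES cells and 6.07 on Day2 and was highest on Day7, at 13.35. Its change of -2.59 on Day2 was -1.47 with no normalization. The ligand Bmp4 fell 5.24-fold and the inhibitory Smad7 3.37-fold, while Bmp7 rose 2.03-fold, which was 0.92 on the log2 scale and inside 2-fold in the deposited values. The Nodal antagonist Lefty1 was raised 2.57-fold on Day2, and Tdgf1, the Nodal co-receptor Cripto, fell 4.81-fold (-2.27 on the log2 scale, and -2.96 with the mean over probes).

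**Figure D4:**
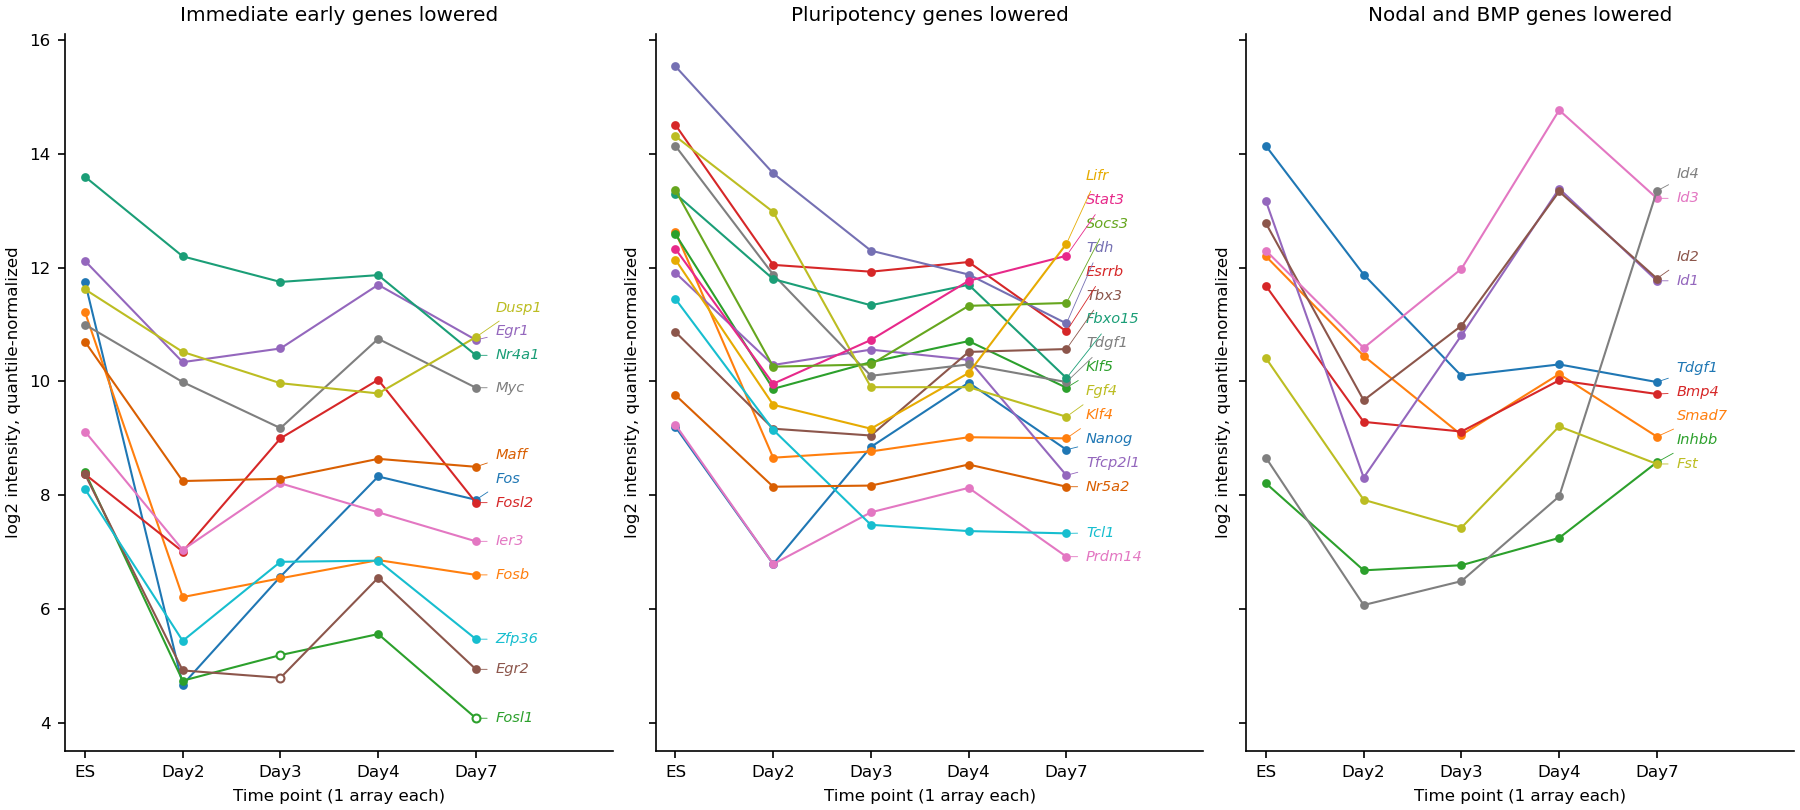
Quantile-normalized log2 intensity over the 5 arrays for the immediate early genes (left), pluripotency genes (middle) and Nodal and BMP genes (right) that were lowered 2-fold or more on Day2. Each point is 1 array, and an open point marks a probe not well above background there. All lines drop from ES cells to Day2. Fos climbs back to 8.33 and Id1 to 13.39 by Day4, whereas Klf4 stays near 9.00.

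In the FGF list 8 of 20 kept genes were lowered (40%, against 7.59% of all kept genes) and 2 raised (10%, against 5.73%). The median log2 change of the list was -0.09, with 9 genes above 0 and 11 below. Among the 16 genes at a log2 level of 8 or more on both arrays 6 were lowered and 0 raised. All 8 lowered genes held at Day3, where 62.8% of all lowered genes did. The transcription factors Etv4 and Etv5 and the inhibitors Spry4, Spred3 and Dusp4, which FGF and ERK signalling induce, fell between 2.29-fold and 10.6-fold, with Etv4 inside 2-fold, at -0.81, with the mean over probes. The largest of these falls, that of Spred3, was -3.40 on the log2 scale and -2.02 under normexp. Dusp6, another such phosphatase, changed by 0.39 on the log2 scale. Fgf8, a ligand of the caudal growth zone, rose on Day2 alone, from 7.50 to 9.72, and was at 7.53 on Day3. Wnt8a, a Wnt ligand of the same zone, did likewise, with 7.92 in ES cells, against 10.84 on Day2, 8.57 at Day3, 6.46 at Day4 and 6.45 at Day7. In the Wnt list 3 of 16 kept genes were raised and 1 lowered. Lef1, a nuclear partner of beta-catenin, fell 3.09-fold, and Fzd2, a Wnt receptor, rose 2.17-fold and held, though it was at 0.89 on the log2 scale, inside 2-fold, in the deposited values.

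Neural genes were mixed on Day2. Of 16 kept genes of neural progenitors 4 were raised and 5 lowered, against 5.73% and 7.59% of all kept genes, with a median log2 change of -0.33. With no normalization, cyclic loess or normexp 3 were lowered. Hes5, a Notch target, rose 3.60-fold from 6.63 to 8.47 and went on to 13.11 on Day4. Sox3 rose 2.80-fold and Sox1 stood at 0.56 on the log2 scale, from a level of 9.44 in ES cells. Olig2, the motor neuron progenitor factor, was at 10.34 in ES cells and 8.47 on Day2, then 7.87, 11.47 and 7.35 at Day3, Day4 and Day7. Nes and Dll1 fell 2.29-fold and 2.14-fold and did not hold, and Dll1 lay inside 2-fold under 5 alternatives, at -0.97 to -0.74. Of 11 kept genes of neurons 2 were raised, Syt1 and Nefm, and neither held, with Syt1 at 2.19 on the log2 scale and 1.19 under normexp. Both entered only through their Day2 signal. Of the 8 neuron genes at a log2 level of 8 or more on both arrays 0 were raised. Stmn2 fell 2.99-fold, from 13.06 in ES cells. In the Shh list 3 of 10 kept genes were raised and 2 lowered, against 5.73% and 7.59% of all kept genes. Under normexp 1 was raised and 1 lowered, since Nkx2-9 at 0.77 and Hhip at 0.82 then lay inside 2-fold. Among the 6 genes of the list at a log2 level of 8 or more on both arrays 1 was raised and 0 lowered. Foxa2, a factor of the floor plate and endoderm, rose 7.79-fold (2.28 on the log2 scale under normexp) from 6.59 to 9.55 and was at 10.36 on Day3, while the Shh receptor Ptch1 changed by -0.03 and the effector Gli1 by 0.45.

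Metabolic genes were examined in a pair of lists. In the sterol synthesis list 20 of 21 kept genes were above 0, although 2 passed 2-fold, Fdps at 2.73-fold and Mvk at 2.35-fold, and both held. Fdps makes farnesyl diphosphate and Mvk phosphorylates mevalonate, both steps towards cholesterol. The median log2 change of the list was 0.67 on Day2 and 0.98 on Day3, against -0.01 for all kept genes on Day2. Under the 75th percentile shift it was 0.38 on Day2, against -0.21 for all kept genes, with Mvk at 0.96 and so inside 2-fold. The list of glycolysis and the hypoxia response had 7 of 28 kept genes lowered (25%, against 7.59% of all kept genes) and 0 raised (against 5.73%), with a median of -0.42 that was -0.69 under the 75th percentile shift. Ldha, the lactate dehydrogenase subunit, fell 2.55-fold, from 17.81 to 16.46, and was at 15.34 on Day3. Egln3 and Ankrd37, both induced by hypoxia, fell 3.22-fold and 3.21-fold. Vegfa, also known as such a target, went the other way, at 0.88.

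Mycn, a proto-oncogene of proliferating progenitors, fell 7.55-fold, with 14.52 in ES cells, against 11.60 on Day2, 11.49 at Day3, 12.41 at Day4 and 12.06 at Day7. It was 1 of 2 genes lowered among 28 kept genes of the cell cycle, the other being Ccne1 at 2.04-fold, and none of that list was raised, with 7.59% lowered and 5.73% raised among all kept genes. Ccne1 lay inside 2-fold under normexp, at -0.96, and with the mean over probes, at -0.66, and 1 gene of the list was raised with no normalization and with cyclic loess. The replication genes Mcm3 and Mcm5 and the mitotic gene Ccnb1 changed by 0.11, 0.24 and -0.09. Of 20 kept genes of amino acid and unfolded protein stress 1 was raised and 0 lowered, and of 21 of heat shock, oxidative and p53 responses 0 were raised and 1 lowered. In the latter list 4 were lowered under the 75th percentile shift and 3 with no normalization. Of 22 genes of adhesion and epithelium 4 were lowered and 0 raised. Among the 19 of them at a log2 level of 8 or more on both arrays 1 was lowered. Cdh1 and Epcam changed by -0.13 and 0.07. Of 17 kept imprinted genes 3 were lowered, and of 9 DNA methylation enzymes 1 was, Dnmt3l at 2.50-fold.

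Markers of other cells that such cultures can hold were examined as well, in lists of few genes whose counts are to be read against 5.73% raised and 7.59% lowered among all kept genes. Of 6 kept genes of mesoderm and endoderm 1 was raised, Foxa2, and 3 were lowered, and of 8 kept genes of extraembryonic endoderm 1 was raised and 2 lowered. Gata6 and Sox17, which define that lineage, stayed below a log2 level of 8 on both arrays, at 6.17 and 6.47 for Gata6 and 6.55 and 6.40 for Sox17. Of 10 kept genes of feeder fibroblasts, cells on which ES cells are often grown, 2 were lowered, Col1a1 from 8.31 to 6.29 (inside 2-fold, at -0.96 on the log2 scale, with no normalization) and Thy1 from 10.99 to 9.38. Postn and Lum were not well above background on either array. Of 15 germ cell genes 2 were raised, Stra8 and the meiotic cohesin Rec8 at 6.16-fold, and 1 was lowered, Prdm1 at 2.79-fold, which did not hold. With no normalization and with cyclic loess 5 were raised. With no normalization 0 were lowered, since Prdm1 was then at -0.97 on the log2 scale. The meiotic and germ line genes Dmc1, Ddx4 and Sycp3 changed by 0.99, -0.22 and 0.30. Of 3 kept genes of the state that resembles the 2-cell embryo 2 were lowered. In the housekeeping list 1 of 14 kept genes was lowered, Hprt at 2.02-fold, and none was raised, with Actb at -0.20 and Gapdh at -0.38.

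**Figure D5:**
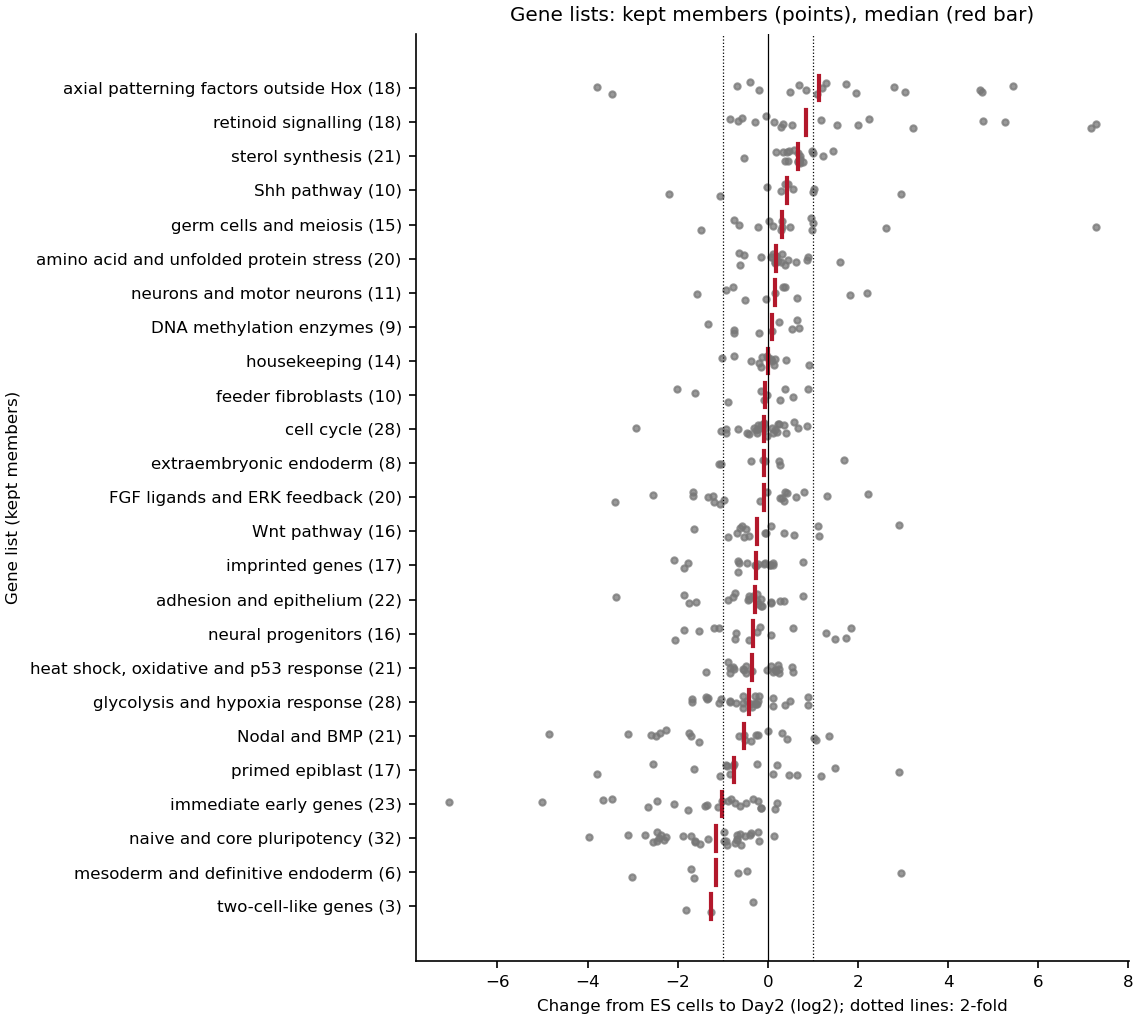
Log2 change from ES cells to Day2 for every kept member of each gene list (points), with the median of the list as a red bar and the number of kept members in brackets. A gene that belongs to 2 lists is drawn in both. The medians of axial patterning factors (1.15) and retinoid signalling (0.86) lie highest, and those of pluripotency (-1.15) and immediate early genes (-1.01) lie among the lowest.

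Some genes had a second probe that passed the filter. Among 60 raised genes with one or more such probes, 69 probes in all, the other probes of a gene were averaged, and the median over genes was 0.83 on the log2 scale. In 24 of the 60 genes this average was also raised 2-fold or more, and in 10 it was at 0 or below. For the 24 raised genes that did not hold, its median was 0.47, and in 7 it was raised 2-fold or more. Among 114 lowered genes with 132 such probes the median was -1.21, and in 67 the average was also lowered 2-fold or more. In 10 genes a second probe was changed 2-fold or more in the opposite direction: Akap17b, Prpmp5, Rhox8, Shisa7, Ttc12 and Zfp423, called raised by their brighter probe, and Dapp1, Elk3, Frat2 and Pik3cd, called lowered. Their calls are uncertain. Elk3 was at -1.21 by its brighter probe and 4.25 by the other.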

How the data were processed

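RNA of 5 samples was labelled with Cy3 and hybridized to Agilent one-colour arrays. For each sample the authors deposited a scanner file, made per the submitters' processing notes with Agilent Feature Extraction 10.5.1. It holds the background-subtracted intensity of every spot, not normalized between arrays, with detection and outlier flags. They also deposited a log2 table of the same arrays, which matches the log2 signal minus the 75th percentile of each array.

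Samples were grouped by their labels. After control and outlier spots had been removed, replicate spots were averaged per probe as log2 values, followed by quantile normalization over all 5 arrays with limma 3.58.1 in R 4.3.3. Of 55681 probes 26300 matched 19897 genes through their accession (RefSeq, GRCm38.p6), and the brightest probe stood for its gene. Further steps used Python 3.11.15, pandas 2.3.3, numpy 2.4.6 and matplotlib 3.10.9. A probe not well above background on Day3 could not hold a rise, and for a fall it took whichever was larger, its measured value or the array's minimum among probes flagged as above background. Precision is limited by 1 array per time point: depth has no counterpart here, and no p-values were computed. The steps were tested on simulated data. The normexp alternative used median spot signals and an offset of 50.

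The members, gene lists and motifs were chosen with earlier results of these data known. Named genes were the markers, up to 6 members of each list per direction, the 15 largest changes, the 10 largest that held and that did not, genes at the 2-fold edge, and genes whose probes disagreed. Other list members were named after their values were seen. Mnx1 had no matched probe and was not analysed here. The values of 1 raised gene of the retinoid list are not reported here, though it is part of the counts.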

Additional observations from a re-analysis of the deposited data

How the results depend on the processing

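The 4 counts of genes stayed within 1.5 times their main values under the 75th percentile shift, no normalization, cyclic loess, normexp with quantile normalization, the deposited log2 table, quantile normalization over ES, Day2 and Day3, a filter at a log2 level of 7 or 9, the other detection flag, detection on 1 array and the mean over probes. With a log2 level of 10 or more, 318 genes were raised, 389 lowered, and 183 and 298 of these held at Day3. With a level of 8 or more on both arrays the counts were 311, 474, 190 and 326. With no level filter 2003 genes were lowered. At 1.5-fold the counts were 1440, 1897, 983 and 1259, and at 4-fold, which was then also asked of Day3, 234, 183, 62 and 105. These filters and thresholds change how many genes can be called. What lies behind the other differences was not examined, and the cause was not tested. The share that held ranged from 26.5% to 68.3% for raised and from 38.0% to 94.3% for lowered genes. Without any normalization 514 of the 865 lowered genes were called again, with 646 of the 653 raised.

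Of 150 named genes past 2-fold, 112 stayed past it in all alternatives that gave them a value, and 6 changed sign, all with the mean over probes: Dapp1 to 0.71, Elk3 to 0.41, Frat2 to 1.05, Pik3cd to 1.01, Rhox8 to -0.35 and Ttc12 to -0.49. The median of the retinoid list ranged from 0.43 to 1.77, of axial factors from 0.68 to 1.28, of immediate early genes from -1.16 to -0.68 and of pluripotency genes from -1.39 to -0.98. The list of neurons turned sign (-0.51 to 0.41), as did those of extraembryonic endoderm, feeder fibroblasts, DNA methylation and amino acid stress, all within 2-fold.

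No paired analysis was possible because there was a single array for every time point, and for the same reason no replicate was left out. Slide was not fitted as a block, since the second slide held Day7 only. Genes that were dim on the ES or Day2 array are limited by their signal over background.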

Other observations

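Other families, picked by their symbols after the data were seen, were described in the same way from ES cells to Day2. Of 12 kept Kruppel-like factor genes, which include several factors of the naive state, 6 were lowered and 0 raised, and 5 of the 6 held at Day3, against 7.59% lowered among all kept genes and 62.8% of those held. Of 24 kept genes that interferon induces, 11 were lowered and 3 raised, with a median log2 change of -0.74, and 7 of the 11 held. Irgm2, an interferon-induced GTPase, was at 8.19 in ES cells and 5.02 on Day2, then 8.54, 8.93 and 8.09 at Day3, Day4 and Day7. It was low on the Day2 array alone, and its log2 change of -3.17 was -1.67 with no normalization. Of 75 kept ribosomal protein genes 0 were changed 2-fold, with a median of 0.07. Of 1318 matched olfactory and vomeronasal receptor genes 28 were kept, and 6 of these were raised and 11 lowered. Among all kept genes 5.73% were raised and 7.59% lowered.

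Of 29381 probes that matched no gene through their accession, 6741 passed the same filter, and 649 of them were raised (9.63%, against 5.73% of the kept genes) and 1010 lowered (15%, against 7.59%) 2-fold or more from ES cells to Day2. These probes are not named here.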
